A study of Oryza sativa with 8 samples.

Results

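Transcript levels of whole Nipponbare seedlings were compared between 0 h and 8 h in 250 mM NaCl. Nipponbare is a japonica rice line. The members are 4 of the 8 arrays of the study, chosen by sample title: 2 arrays of plants taken at 0 h and 2 of plants taken after 8 h. The plants were 14 days old, grown in a greenhouse under natural light and temperature, and the replicates are biological ones by the study's design. How many seedlings went into a sample is not given in the sources used here. The other 4 arrays hold the indica line Pokkali at the same times and served to estimate the spread and to test whether a change differed between the lines. None of the groups used here was kept for 8 h without salt, so salt and time of day cannot be told apart in any change below. All arrays lay on 1 slide, and array position and group cannot be told apart either.

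Salt first withdraws water from roots and then loads tissue with sodium. In plants the hormone abscisic acid carries much of the response: its PYL receptors hold back clade A protein phosphatases 2C, which frees SnRK2 kinases (SAPK in rice) to activate bZIP transcription factors, and these switch on protective late embryogenesis abundant (LEA) proteins. Sodium itself is moved by HKT transporters, by SOS1 at the plasma membrane and by NHX antiporters at the vacuole, driven by proton pumps, while aquaporins set how easily water crosses membranes.

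A level is given throughout as log2 intensity relative to the 75th percentile of its array, so that a difference of 1 is a 2-fold change. Each group had n = 2 arrays, and adjusted p is that of limma over all 45412 loci tested, with a threshold of 0.05. In Nipponbare 26.3% of loci passed, 14% higher and 12.3% lower at 8 h, and the median change over all loci was 0.05. The levels of the 0 h and 8 h arrays did not overlap in 68.9% of loci. Replicate arrays were less alike before salt: the SD of their difference over loci was 0.62 at 0 h and 0.44 at 8 h. Without scaling between arrays the median change moved to -0.17, and changes are therefore relative to the scaling. Known genes were followed in 47 lists of 401 loci. Of the members tested 75 rose and 118 fell, and 197 did not pass. In 104 of the 193 members that passed, the call held under every alternative that gave the locus a value, and these are called stable below. There were 20 alternatives for single loci, and 18 of the 193 members, 6 of them stable, had a value in 19, since none of their probes was above background on all 8 arrays. No call changed sign where there was a value. Another background correction moved the fold by over 1.5 times in 36 of the 193, always towards no change. It adds an offset of 50 intensity units to every spot, which by itself draws the change of dim loci that way. Names of loci come from general knowledge, not from the files: 236 of the 401 names stand in RefSeq's rice gene table on the chromosome that the locus identifier gives, 9 only on another chromosome, and 156 were not found. On chromosome 5 some of the 236, among them PP2C50, EXPA3 and GLB1, lay off the fitted line of RefSeq position against locus number.

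**Figure D1:**
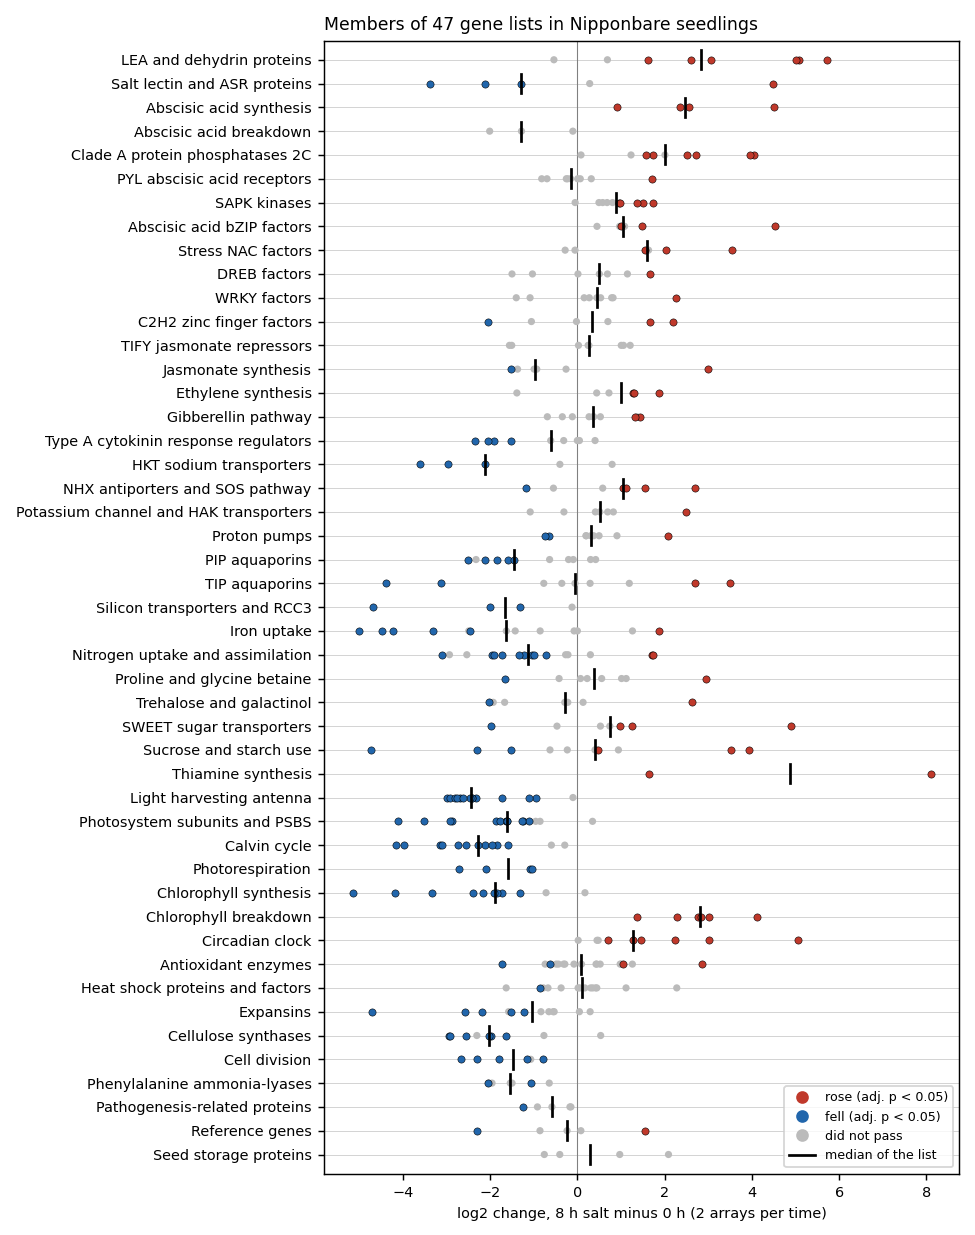
Change from 0 h to 8 h of salt in Nipponbare for each tested member of 47 gene lists (x axis, log2 change of the mean of 2 arrays per time; 1 row per list). Red points rose, blue points fell and grey points did not pass the limma test; black bars are list medians. All 6 chlorophyll breakdown genes lie to the right of 0, and all but 1 of the light harvesting genes that were tested are blue.

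The seedlings showed the markers of shoot and root. All 14 tested light harvesting and all 15 photosystem loci were above background on all 4 arrays. Of the root markers LSI1, LSI2, RCC3 and NRT2.2 were above background on all 4 arrays, and NRT2.1 (LOC_Os02g02170) was on none. The 4 seed storage loci, markers of endosperm, did not pass: GLUA1 was at 2.09 (limma, adjusted p = 0.0814), GLUA2 at -0.40, GLUA3 at -0.76 and GLB1 at 0.97 on the log2 change scale, and 1 of the 4 had an unadjusted p under 0.05. GLUA2 was above background on 1 array at each time, GLUA3 on 1 of the 8 h arrays and GLB1 on 1 of the 0 h arrays. GLUA1 lay at -1.30 and -3.42 at 0 h and at -0.16 and -0.39 at 8 h. Leaving out Nipponbare 0 h replicate 1 gave 1 seed storage locus that rose and 1 that fell.

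LEA proteins protect cells as they dry, and most of the listed genes rose. Of 8 tested LEA and dehydrin loci 6 rose and 0 fell, with a list median of 2.84 against 0.05 over all loci, and all 6 calls were stable. WSI18 (LOC_Os01g50910), a group 3 LEA protein, lay at 0.72 and 0.68 at 0 h and at 3.80 and 3.73 at 8 h. Both 8 h levels stood well above both 0 h levels, a log2 change of 3.07 (SE 0.19, adjusted p = 0.00103). EM1 (LOC_Os05g28210), an Em protein known from maturing seeds and named after its values were seen, went from -0.32 and -0.25 to 1.1 and 1.55 (change 1.61, SE 0.19, adjusted p = 0.0031). RAB16C (LOC_Os11g26760), a dehydrin, went from -1.76 and -1.99 to 3.54 and 4.16. Another dehydrin, RAB16A (LOC_Os11g26790), was below background at 0 h and rose at least 11.2-fold (adjusted p = 0.00155).

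The abscisic acid, stress and ripening (ASR) proteins held 3 falls among 4 loci. Of 5 tested loci of the salt lectin and ASR list 1 rose and 3 fell. The riser was SALT (LOC_Os01g24710), a mannose-binding lectin of salt-stressed rice, at -5.71 and -6.76 before and -1.95 and -1.54 after salt (stable; above background on 1 of the 0 h arrays, with a log2 change of 4.49 that was 2.23 with another background correction). ASR-a (LOC_Os01g72900) lay at 3.0 and 2.82 at 0 h and at -0.59 and -0.35 at 8 h. The groups lay far apart, with a log2 change of -3.38 (SE 0.21, adjusted p = 0.00103, stable). ASR-c (LOC_Os02g33820) fell by 2.12 (SE 0.28, adjusted p = 0.00424, stable). ASR-b (LOC_Os01g73250) was at -1.29 as the mean of its probes (adjusted p = 0.00824), which were at -2.10 and -0.49, and it was not called when only the brightest probe was used (-0.49, adjusted p = 0.134), which left 2 ASR falls. ASR-d (LOC_Os11g06720), chosen after its values were seen, lay at 8.41 and 8.42 at 0 h and 8.71 and 8.69 at 8 h and did not pass (change 0.28, adjusted p = 0.164).

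Rises were counted in 4 of 4 loci of abscisic acid synthesis, 6 of 9 clade A phosphatases and 5 of 10 SAPK kinases, and in 1 of 9 receptors. Over all loci 14% rose. All 4 synthesis loci rose, 1 of them stably: NCED5 (LOC_Os12g42280), a dioxygenase whose cleavage step limits the pathway, went from -0.68 and -0.31 to 1.81 and 1.94. Zeaxanthin epoxidase ZEP1 (LOC_Os04g37619), an earlier step, was at 0.91 (SE 0.19, adjusted p = 0.0189). Its call ended when any 1 Nipponbare array was omitted (adjusted p = 0.0512 to 0.116) or when only the brightest probe was used (0.119). The count of risen synthesis loci was 1 when 0 h replicate 1 or either 8 h array of Nipponbare was omitted. The 3 breakdown loci did not pass in limma, 0 of them at an unadjusted p under 0.05, and had a median change of -1.28. Without Nipponbare 0 h replicate 1, 1 of them fell.

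Of 9 clade A phosphatases 2C, negative regulators of the pathway, 6 rose and 0 fell (list median 2.01). PP2C68 (LOC_Os09g15670) lay at -0.86 and -0.08 at 0 h and at 3.38 and 3.60 at 8 h, a 15.6-fold rise (SE 0.38 log2 units, adjusted p = 0.00198, stable). PP2C50 (LOC_Os05g46040) went from -0.35 and -0.56 to 2.21 and 2.35 (change 2.73, SE 0.17, adjusted p = 0.00103, stable). For both genes the 8 h levels lay well above both 0 h levels. PP2C30 (LOC_Os03g16170) had the largest fitted change among them, 4.04 (SE 0.79, adjusted p = 0.014), with 0 h levels of -1.03 and 1.06. Its call ended without 8 h replicate 1 (adjusted p = 0.0564) or 8 h replicate 2 (0.0806). Without Nipponbare 8 h replicate 2 the number of risen phosphatases was 2.

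Of 9 PYL receptors 1 rose, near the share of all loci (14%), and the list median was -0.15. The riser was the locus called PYL-h (LOC_Os06g36670, change 1.72, SE 0.39, adjusted p = 0.0232). That call ended once 0 h replicate 2 or either 8 h array of Nipponbare was omitted, leaving 0 risen receptors each time. Of the 10 SAPK kinases 5 rose and 0 fell (median 0.89). SAPK1 (LOC_Os03g27280) lay at -0.84 and -0.90 before and at 0.72 and 0.99 after salt (change 1.73, SE 0.16, adjusted p = 0.00186), and was the stable member. The kinase count was 3 without Nipponbare 0 h replicate 2 or 8 h replicate 1 and 1 without 8 h replicate 2.

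Transcription factors of 3 families linked to abscisic acid and stress held rises. Of 6 bZIP factors 3 rose, led by ABI5 (LOC_Os01g64000), which lay at -2.79 and -5.20 at 0 h and at 0.20 and 0.85 at 8 h. That is a 22.9-fold rise with an SE of 0.74 log2 units (adjusted p = 0.00823; 0.0581 without Nipponbare 8 h replicate 2). The bZIP count was 1 without Nipponbare 0 h replicate 2 and 0 without 8 h replicate 2. Of 6 stress NAC factors 3 rose. NAC10 (LOC_Os11g03300) went from 1.98 and 2.11 to 5.21 and 5.97, and NAC5 (LOC_Os11g08210) from 1.07 and 1.55 to 3.22 and 3.46, both stable. Of 6 C2H2 zinc finger factors 2 rose and 1 fell. ZFP182 (LOC_Os03g60560), which acts in salt tolerance, went from -1.05 and -0.96 to 0.52 and 0.81 (change 1.67, SE 0.18, adjusted p = 0.00248). DST (LOC_Os03g57240), a negative regulator of drought and salt tolerance, lay at -0.20 and -0.27 at 0 h and at -1.95 and -2.63 at 8 h. Its log2 change was -2.05 (SE 0.23, adjusted p = 0.00301). ZFP182 and DST were stable, and without 8 h replicate 2 the rises numbered 1.

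Among sodium transport genes the HKT calls were falls, and most calls of the NHX and SOS list were rises. Of 5 tested HKT loci 0 rose and 3 fell, all 3 stably, with a list median of -2.12. HKT1;3 (LOC_Os02g07830), a sodium transporter, lay at -1.51 and -0.20 before salt and at -5.06 and -3.84 after it. It fell 12.1-fold (SE 0.55 log2 units, adjusted p = 0.00672). HKT2;3 (LOC_Os01g34850) went from -2.11 and -1.84 to -5.04 and -4.84 (change -2.96, SE 0.16, adjusted p = 0.000928). HKT2;4 (LOC_Os06g48800) went from -2.19 and -2.33 to -4.69 and -4.06 (change -2.12, SE 0.23, adjusted p = 0.00267). In each of these the 8 h levels lay below both 0 h levels. The sizes are less certain than the direction. Over all alternatives the change ranged from -4.25 to -2.25 for HKT1;3 and from -3.18 to -1.52 for HKT2;3. For HKT2;4 it ranged from -2.43 to -1.13. HKT1;4 and HKT1;5 had no probe that was kept.

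Of 7 loci of the NHX and SOS list 4 rose and 1 fell. NHX3 (LOC_Os11g42790) had levels of 1.70 and 1.17 at 0 h and of 4.02 and 4.24 at 8 h, a 6.47-fold rise (SE 0.25 log2 units, adjusted p = 0.0019, stable). NHX1 (LOC_Os07g47100), the best studied vacuolar antiporter, went from 1.80 and 1.68 to 2.96 and 3.59 (stable). NHX4 (LOC_Os06g21360) went down from -2.57 and -2.28 to -3.54 and -3.64 (change -1.17, SE 0.16, adjusted p = 0.005, stable). Members of 1 antiporter family thus moved in both directions. CIPK24 (LOC_Os06g40370), the kinase of the SOS pathway, was at 1.11 (adjusted p = 0.0387; 0.003 to 0.164 over all alternatives). It was not called when Nipponbare 0 h replicate 2 or any 1 of the 8 h arrays of either line was omitted. Without 8 h replicate 2 the rises numbered 2, with CIPK24 and SOS1 (LOC_Os12g44360; adjusted p = 0.0534) not called.

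Proton pumps and potassium transporters passed about as often as loci in general. Of 9 pump loci 1 rose and 2 fell. OSA1 (LOC_Os03g48310), a plasma membrane proton pump, went from -0.39 and -0.47 to 1.43 and 1.88, a 4.24-fold rise (SE 0.27 log2 units, adjusted p = 0.00415, stable). OSA3 (LOC_Os12g44150) was at -0.66 (adjusted p = 0.0362) and the vacuolar pyrophosphatase OVP2 (LOC_Os06g08080) at -0.73 (adjusted p = 0.0212). Both falls ended once 0 h replicate 2 or either 8 h array of Nipponbare was omitted, and the OSA3 fall also without 0 h replicate 1 or either Pokkali 8 h replicate. Of 7 potassium loci 1 rose, HAK10 (LOC_Os06g42030), from -5.52 and -5.99 to -3.71 and -2.81 (change 2.49, SE 0.52, adjusted p = 0.0169). That call ended without Nipponbare 0 h replicate 2 or 8 h replicate 2, the latter with 1 other locus falling.

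Aquaporins of the plasma membrane (PIP) held 5 falls, and those of the tonoplast (TIP), the membrane of the vacuole, moved both ways. Of 11 PIP loci 5 fell and 0 rose, 3 of the falls stably (list median -1.46). With another background correction 4 fell, PIP1;2 (LOC_Os04g47220; named after its values were seen) passed as higher (adjusted p = 0.0421) and the list median was -0.31. PIP2;1 (LOC_Os07g26690) lay at 5.0 and 5.33 at 0 h and at 3.57 and 3.59 at 8 h (change -1.59, SE 0.16, adjusted p = 0.00231). PIP2;5 (LOC_Os07g26660) was at -1.85 (SE 0.25, adjusted p = 0.00465). PIP2;8 (LOC_Os03g64330) was above background on 1 of the 0 h arrays and on neither 8 h array, and it fell at least 1.14-fold (adjusted p = 0.0139; 0.00636 to 0.423 over all alternatives). It was not called with another background correction (0.423) or when either Nipponbare 8 h array was omitted. Omitting either of these arrays left 3 PIP loci that fell. The 3 PIP1 loci did not pass, with changes of -0.64 to 0.42.

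Of 9 TIP loci 2 rose and 2 fell, all 4 stably. TIP2;1 (LOC_Os02g44080) went from 0.17 and 0.98 to -4.18 and -3.42, a 20.7-fold fall (SE 0.48 log2 units, adjusted p = 0.00272). TIP4;2 (LOC_Os01g13120) went from -1.57 and -0.99 to -4.57 and -4.24 (change -3.13, SE 0.25, adjusted p = 0.00144). The locus with the next number, TIP4;3 (LOC_Os01g13130), went the opposite way, from -1.41 and -2.05 to 1.32 and 2.21 (change 3.50, SE 0.40, adjusted p = 0.0031). TIP3;2 (LOC_Os04g44570), of a group known from seeds and above background on 1 of the 0 h arrays, rose from -6.06 and -5.25 to -2.94 and -2.97 (change 2.70, SE 0.29, adjusted p = 0.00255; 1.23 with another background correction).

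**Figure D2:**
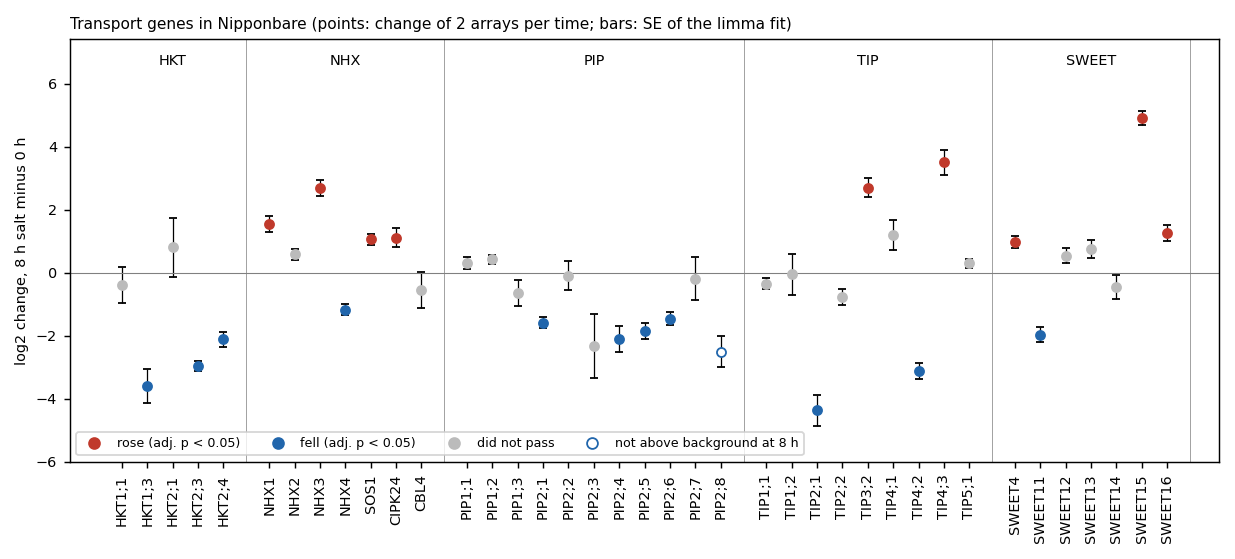
Log2 change from 0 h to 8 h of salt (y axis) of each tested HKT, NHX and SOS, PIP, TIP and SWEET locus in Nipponbare; bars are the SE of the limma fit with 2 arrays per time, and the open circle is a locus below background at 8 h. The 3 blue HKT points lie between -3.60 and -2.12, and the TIP panel holds red points at 2.70 and 3.50 beside blue points at -4.37 and -3.13.

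Falls outnumbered rises among nutrient uptake genes of the root. In bulk seedlings fewer cells of a type and less RNA per cell cannot be told apart. Of 4 loci of the silicon and root list 3 fell. RCC3 (LOC_Os02g44310), a gene expressed in roots, lay at 3.09 and 4.27 before and at -1.16 and -0.85 after salt, a 25.7-fold fall (stable). LSI1 (LOC_Os02g51110), the silicon channel of roots, was at -1.32 (stable), whereas LSI2 (LOC_Os03g01700), the silicon exporter of the same tissue and a marker named above, lay at -3.40 and -3.66 against -3.46 and -3.84 (change -0.12, adjusted p = 0.765). LSI6 (LOC_Os06g12310), a silicon channel found also in leaves, was at -2.01 (SE 0.46, adjusted p = 0.0229; not passing without Nipponbare 0 h replicate 2 or either 8 h replicate).

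Of 13 iron loci 1 rose and 5 fell, none stably. YSL15 (LOC_Os02g43410), which imports iron bound to a phytosiderophore, lay at -4.15 and -0.85 at 0 h and was below background at 8 h, so it fell at least 10.03-fold (adjusted p = 0.0185; 0.127 with another background correction, 0.0684 and 0.0991 without 8 h replicate 1 or 2 of Nipponbare). Nicotianamine synthase NAS1 (LOC_Os03g19427) went from 2.26 and 4.56 to -1.71 and 0.06 (change -4.23, SE 0.91, adjusted p = 0.0189), and was not called with the Nipponbare arrays alone (0.0522) or when 0 h replicate 2 (0.0712) or 8 h replicate 1 (0.088) was omitted. Ferritin FER2 (LOC_Os12g01530), which stores iron, was the riser, from 0.29 and 0.03 to 1.71 and 2.35 (change 1.88, SE 0.50, adjusted p = 0.0376). The 0 h replicates lay apart for this group, with list means of -1.63 and -0.10. Omitting 0 h replicate 1 of Nipponbare gave 8 falls, omitting 0 h replicate 2 or 8 h replicate 2 gave 2, and omitting 8 h replicate 1 gave 0. The FER2 call ended when any 1 Nipponbare array or either Pokkali 8 h array was omitted. Another background correction left 1 fall.

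In nitrogen assimilation, 2 of 3 glutamine synthetases fell and the 2 glutamate synthases passed in opposite directions. Of 16 loci 2 rose and 9 fell (median -1.13), 1 and 4 of them stably. Nitrite reductase NIR1 (LOC_Os01g25484) went from 3.70 and 4.16 to 2.11 and 2.28 (change -1.73, SE 0.25, adjusted p = 0.0056). Cytosolic GS1;2 (LOC_Os03g12290) was at -1.96 (SE 0.28, adjusted p = 0.00537) and chloroplast GS2 (LOC_Os04g56400) at -1.90 (SE 0.25, adjusted p = 0.00411). The glutamate synthase NADH-GOGAT1 (LOC_Os01g48960) went up, from 5.12 and 4.71 to 6.42 and 6.89 (change 1.74, SE 0.26, adjusted p = 0.00617). FD-GOGAT (LOC_Os07g46460), the ferredoxin-dependent glutamate synthase of chloroplasts, was at -0.73 (adjusted p = 0.0188) and is named after its values were seen; it was not called when any 1 Nipponbare array was omitted. The nitrate transporter NRT2.2 (LOC_Os02g02190) had 0 h levels of -0.68 and -1.62 and 8 h levels of -4.12 and -4.38. The falls numbered 4 without Nipponbare 0 h replicate 2 or either 8 h replicate, and the rises 1 without 0 h replicate 1, 0 h replicate 2 or 8 h replicate 2.

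Among genes of compatible solutes the rises were single genes rather than whole lists. Of 8 proline and glycine betaine loci 1 rose and 1 fell, close to the share of all loci that passed (26.3%). Ornithine aminotransferase OAT (LOC_Os03g44150), which turns ornithine towards glutamate and proline, went from 0.00 and -0.61 to 2.48 and 2.81, a 7.76-fold rise (SE 0.36 log2 units, adjusted p = 0.00355, stable). Proline dehydrogenase PRODH (LOC_Os10g40360), which breaks proline down, was at -1.66 (SE 0.42, adjusted p = 0.0326; 0.00622 to 0.136 over all alternatives). PRODH was not called when Nipponbare 0 h replicate 2 or any 1 of the 8 h arrays of either line was omitted. Of 7 trehalose and galactinol loci 1 rose and 1 fell, both stably and again close to that share. Galactinol synthase GOLS2 (LOC_Os07g48830), which starts the raffinose pathway, went from -1.75 and -1.52 to 0.81 and 1.20, a 6.23-fold rise (adjusted p = 0.00211). Omitting Nipponbare 0 h replicate 1 gave 3 falls in that list, and omitting that array or either Pokkali 0 h array gave 2 rises in the proline list.

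Sugar transport and sucrose cleavage showed opposite changes within families. SWEET proteins let sugars out of cells. Of 7 SWEET loci 3 rose and 1 fell. SWEET15 (LOC_Os02g30910) lay at -2.17 and -1.88 at 0 h and at 2.60 and 3.14 at 8 h, a 29.8-fold rise (SE 0.22 log2 units, adjusted p = 0.000617, stable). SWEET11 (LOC_Os08g42350) went down from 1.84 and 1.43 to -0.46 and -0.21 (change -1.97, SE 0.24, adjusted p = 0.00356, stable). SWEET16 (LOC_Os03g22200), whose relatives sit in the vacuole membrane, was at 1.25 (adjusted p = 0.0144) and SWEET4 (LOC_Os02g19820) at 0.97 (adjusted p = 0.0153). Both of these calls ended without Nipponbare 0 h replicate 2 or 8 h replicate 2, which left 1 SWEET locus that rose.

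Of 12 sucrose and starch loci 3 rose and 3 fell. Sucrose synthase SUS4 (LOC_Os03g22120) went from 3.59 and 2.67 to 6.64 and 6.66, an 11.5-fold rise (SE 0.52 log2 units, adjusted p = 0.00607), while its relative SUS1 (LOC_Os03g28330) went from 0.88 and 0.79 to -1.34 and -1.60 (change -2.30, SE 0.21, adjusted p = 0.00186). The cell wall invertase CIN2 (LOC_Os04g33740) fell, from -0.90 and -0.84 to -5.42 and -5.79, with 1 of the 8 h arrays above background (adjusted p = 0.00112). Its fitted log2 change was -4.74, and -2.70 with another background correction, so its size is uncertain. The starch-degrading amylase AMY3D (LOC_Os08g36910) rose 15.3-fold, from 0.80 and -0.17 to 3.77 and 4.74 (SE 0.51 log2 units, adjusted p = 0.00422). These 4 calls were stable. Sucrose carrier SUT1 (LOC_Os03g07480), at 0.49, passed narrowly (adjusted p = 0.0428; 0.0107 to 0.426 over all alternatives) and lost its call when any 1 of the 8 arrays was left out.

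Both measured genes of thiamine (vitamin B1) synthesis rose stably, and they count 2 of 2 tested. THI1 (LOC_Os07g34570), which makes the thiazole part of the molecule in the chloroplast, lay at 1.67 and -0.53 at 0 h and at 8.71 and 8.62 at 8 h. The 0 h arrays differed widely, and the 8 h levels stood far above both, a 273-fold rise (log2 8.09, SE 0.96, adjusted p = 0.00329). THIC (LOC_Os03g47610), which makes the pyrimidine part, went from -0.03 and -0.01 to 1.87 and 1.39 (change 1.65, SE 0.22, adjusted p = 0.00429) as the mean of its probes, which disagreed as described below. In Pokkali the changes were 8.71 and 2.17.

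Most photosynthesis genes fell, beside a change of the clock list given further below. Of 14 light harvesting loci 13 fell (median -2.44), 10 stably, and of 15 photosystem loci 12 fell (median -1.61), 8 stably. PSAN (LOC_Os12g08770), a subunit of photosystem I, went from 3.93 and 4.05 to 0.69 and 0.29 (change -3.50, SE 0.21, adjusted p = 0.00103). PSAF (LOC_Os03g56670), which docks plastocyanin, went from 2.74 and 2.85 to 0.19 and -0.35 (change -2.88, SE 0.22, adjusted p = 0.00132). LHCA5 (LOC_Os02g52650), an antenna protein of photosystem I, was at -2.92 (SE 0.21, adjusted p = 0.00121). The antenna locus that did not pass, LHCB2 (LOC_Os03g39610), lay at 1.63 and 1.48 against 1.41 and 1.49 (change -0.10, adjusted p = 0.72) and is named after its values were seen.

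Carbon fixation followed the same direction. Of 13 tested Calvin cycle loci 11 fell, 8 of them stably, with a median of -2.28. GAPA (LOC_Os04g38600), the chloroplast glyceraldehyde phosphate dehydrogenase, went from 6.14 and 6.42 to 2.42 and 1.84, a 17.7-fold fall (SE 0.28 log2 units, adjusted p = 0.00113). RCA (LOC_Os11g47970), which reactivates Rubisco, went from 8.45 and 8.78 to 5.29 and 5.73 (change -3.10, SE 0.27, adjusted p = 0.00171). Phosphoribulokinase PRK (LOC_Os02g47020) was at -2.74 (SE 0.22, adjusted p = 0.00142; chosen after its values were seen). All 4 photorespiration loci fell (median -1.59), among them GDCH (LOC_Os10g37180), a subunit of glycine decarboxylase, at -2.71 (SE 0.58, adjusted p = 0.0192). None of these 4 calls was stable: 2 remained without either Nipponbare 0 h replicate and 0 without 8 h replicate 2.

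Chlorophyll genes moved in opposite directions by role. Of 12 loci of chlorophyll synthesis 10 fell and 0 rose (median -1.89), and all 6 loci of chlorophyll breakdown rose (median 2.81). The mean level of the synthesis list was 1.20 and 1.21 at 0 h and -0.81 and -1.19 at 8 h, and that of the breakdown list was -0.44 and -0.32 at 0 h and 2.08 and 2.63 at 8 h. No list mean of an 8 h array overlapped those of the 0 h arrays.

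Synthesis fell at early and late steps. HEMA1 (LOC_Os10g35840), the glutamyl-tRNA reductase that opens the pathway, went from 1.61 and 2.14 to -0.14 and 0.12 (change -1.89, SE 0.22, adjusted p = 0.00318). CHLM (LOC_Os06g04150), a methyltransferase of the magnesium branch, went from 3.17 and 3.17 to 0.24 and -0.57 (change -3.33, SE 0.44, adjusted p = 0.00421). CRD1 (LOC_Os01g17170), of the cyclase that closes the fifth ring, fell 18.2-fold (adjusted p = 0.00159). PORA (LOC_Os04g58200), a light-dependent protochlorophyllide oxidoreductase, went from -0.70 and -0.89 to -5.16 and -6.71, with 1 of the 8 h arrays above background (adjusted p = 0.00206). Its fitted log2 change was -5.13, and -2.76 with another background correction. These 4 belong to 7 stable falls. CAO1 (LOC_Os10g41780), which makes chlorophyll b, lay at -1.25 and -1.27 against -1.04 and -1.12 and did not pass (adjusted p = 0.374); it and HEMA1 are named after their values were seen.

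Breakdown loci rose at early and late steps. NYC1 (LOC_Os01g12710), the chlorophyll b reductase that opens antenna breakdown, went from -0.89 and -0.95 to 1.65 and 2.19, a 7.17-fold rise (SE 0.24 log2 units, adjusted p = 0.00161). NYC3 (LOC_Os06g24730), a hydrolase-like protein needed for breakdown, went from -3.23 and -2.84 to -0.22 and 0.18 (change 3.01, SE 0.28, adjusted p = 0.00186). RCCR (LOC_Os10g25030), which reduces the red catabolite, went from 1.78 and 1.28 to 5.46 and 5.85, a 17.5-fold rise (SE 0.35 log2 units, adjusted p = 0.00155). These calls and that of the oxygenase PAO (LOC_Os03g05310; named after its values were seen), at 2.29 (SE 0.29, adjusted p = 0.0039), were stable. SGR (LOC_Os09g36200), the stay-green protein that starts breakdown by removing magnesium, was at 2.77 (SE 0.49, adjusted p = 0.0104; 0.0702 without Nipponbare 8 h replicate 2).

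**Figure D3:**
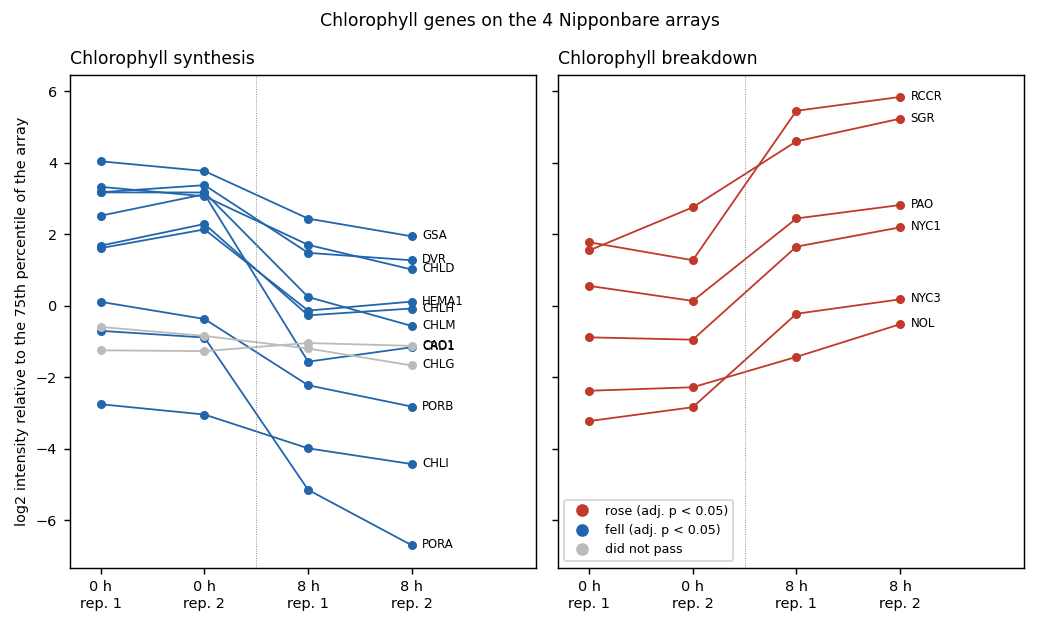
Levels of the 12 chlorophyll synthesis loci (left) and the 6 chlorophyll breakdown loci (right) on each Nipponbare array (x axis; y axis, log2 intensity relative to the 75th percentile of the array); thin lines join the values of 1 locus and imply no order of replicates. The 10 blue synthesis loci lie lower on both 8 h arrays than on both 0 h arrays, 2 grey ones did not pass, and the 6 red breakdown loci lie higher at 8 h.

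The clock list changed as well, and its part in the photosynthesis and chlorophyll results was not tested. Clock genes cycle over the day, and no unsalted 8 h seedlings stand beside them. Of 9 tested clock loci 6 rose and 0 fell (median 1.27), 3 of them stably. PRR1 (LOC_Os02g40510), the rice TOC1, lay at -2.19 and -1.94 at 0 h and at 0.99 and 0.93 at 8 h, an 8.11-fold rise (SE 0.17 log2 units, adjusted p = 0.000928). PRR95 (LOC_Os09g36220) went from 3.05 and 2.38 to 4.89 and 4.99, and ELF3-2 (LOC_Os01g38530), of the evening complex, from 1.00 and 0.92 to 2.13 and 2.32. LUX (LOC_Os01g74020), another member of that complex, was above background on 1 of the 0 h arrays and lay at -4.41 and -7.64 at 0 h and at -0.67 and -1.26 at 8 h (change 5.05, SE 0.97, adjusted p = 0.0134; 2.64 with another background correction), and LUX was not called when either Nipponbare 8 h array was omitted. PRR59 (LOC_Os11g05930) was at 1.46 (adjusted p = 0.0112) and PRR37 (LOC_Os07g49460) at 0.71 (adjusted p = 0.0457). PRR73 was at 0.45, GI at 0.48 and ELF3-1 at 0.02 and these 3 did not pass. The calls of PRR59 and PRR37 ended without Nipponbare 0 h replicate 2 or either 8 h replicate, and that of PRR37 also without any 1 Pokkali array. Without either 8 h replicate the rises numbered 3.

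Antioxidant and heat shock genes showed few changes that passed, and the list medians were near that of all loci. Of 17 antioxidant loci 2 rose and 2 fell (median 0.10), close to the share of all loci that passed (26.3%). The catalases parted: CATB (LOC_Os06g51150) went from -3.28 and -3.89 to -1.06 and -0.39, a 7.25-fold rise (SE 0.39 log2 units, adjusted p = 0.00463), and CATC (LOC_Os03g03910), the leaf catalase of photorespiration, from 6.89 and 6.99 to 5.17 and 5.25 (change -1.72, SE 0.16, adjusted p = 0.00182). SODCC2 (LOC_Os07g46990), a cytosolic superoxide dismutase, was at 1.04 (SE 0.13, adjusted p = 0.00409), and these 3 calls were stable. The 8 ascorbate peroxidases did not pass, with changes of -0.48 to 0.98. Without any 1 Nipponbare array, or without either Pokkali 8 h array, the antioxidant falls numbered 1. Of 14 heat shock loci 0 rose and 1 fell, the locus called HSP90 (LOC_Os08g39140), a name that RefSeq gives only on another chromosome, at -0.86 (adjusted p = 0.0159). It was not called when 0 h replicate 2 (0.0821), 8 h replicate 1 (0.0813) or 8 h replicate 2 (0.0772) of Nipponbare was omitted. Changes of single heat shock loci ran from -1.63 to 2.28. The heat shock list mean was -0.86 and -1.88 on the 0 h arrays against -1.37 and -1.25 at 8 h. The unsalted replicates thus differed more than the times. Another background correction gave 4 antioxidant and 2 heat shock rises. Omitting 0 h replicate 1 of Nipponbare gave 2 heat shock rises, and omitting either Pokkali 0 h array gave 1 rise and 2 falls.

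Falls and no rises were called among genes of cell wall growth and cell division. Of 12 expansins, which loosen walls, 5 fell and 0 rose (median -1.03), 4 stably. EXPA3 (LOC_Os05g19570) lay at 0.88 and 1.96 before and at -3.11 and -3.45 after salt, a 26.0-fold fall (SE 0.42 log2 units, adjusted p = 0.00177). EXPB3 (LOC_Os10g40720) went from 2.09 and 2.31 to -0.19 and -0.55 (change -2.57, SE 0.27, adjusted p = 0.00247). Of 9 cellulose synthases 6 fell and 0 rose (median -2.03), 3 of them stably. CESA7 (LOC_Os10g32980) and CESA4 (LOC_Os01g54620), which build secondary walls, were at -2.95 (SE 0.28, adjusted p = 0.00197) and -2.03 (SE 0.23, adjusted p = 0.00279). CESA9 (LOC_Os09g25490), their partner, was below background at 8 h and fell at least 1.78-fold (adjusted p = 0.013; 0.00554 to 0.0809 over all alternatives), not called with another background correction (0.0675) or when 0 h replicate 2 or either 8 h array of Nipponbare was omitted. Without either 8 h array 3 cellulose synthases fell, and 1 rose without 8 h replicate 1.

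Of 6 cell division loci 5 fell (median -1.48), 3 stably. The mitotic cyclin CYCB1;1 (LOC_Os01g59120) went from -0.09 and 0.29 to -2.72 and -2.41, a 6.33-fold fall (SE 0.28 log2 units, adjusted p = 0.00241). CYCB2;1 (LOC_Os04g47580) was at -2.30 (SE 0.32, adjusted p = 0.00501). PCNA (LOC_Os02g56130), of DNA replication, was named after its values were seen: it lay at -1.57 and -0.39 against -2.15 and -1.94 and did not pass (change -1.07, adjusted p = 0.204).

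None of the calls in the growth hormone lists was stable, and 26.3% of all loci passed. Of 9 type A response regulators, which damp cytokinin signals, 4 fell and 0 rose (median -0.61). RR1 (LOC_Os04g36070) went from -1.73 and -1.59 to -3.16 and -3.21 (change -1.52, SE 0.28, adjusted p = 0.0119). With another background correction 1 locus of the list fell, and with no filter on dim probes 2. None of the 4 falls remained without Nipponbare 0 h replicate 2 or without either 8 h replicate. Of 10 tested gibberellin loci 2 rose. These were GA2OX6 (LOC_Os04g44150), which inactivates gibberellin, at 1.31 (SE 0.21, adjusted p = 0.00794; 0.0598 without Nipponbare 8 h replicate 2), and GA3OX2 (LOC_Os01g08220), which makes it, at 1.44 (adjusted p = 0.0416; 0.00784 to 0.191 over all alternatives). GA3OX2 did not pass without 0 h replicate 2 or either 8 h replicate of Nipponbare or without any 1 Pokkali array. The gibberellin rises numbered 0 when 8 h replicate 2 of Nipponbare was omitted and 1 for any other omitted array but 0 h replicate 1 of Nipponbare. Of 6 ethylene synthesis loci 3 rose, with ACS2 (LOC_Os04g48850), a rate-limiting synthase, at 1.88 (adjusted p = 0.0381; 0.00863 to 0.142 over all alternatives). Omitting Nipponbare 0 h replicate 1 or either Pokkali 8 h array left 1 ethylene locus that rose, and omitting Nipponbare 8 h replicate 2 left 0. The ACS2 call ended without either 8 h replicate of Nipponbare or any 1 Pokkali array.

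The list means of TIFY, jasmonate synthesis, WRKY and DREB genes differed more between the unsalted replicates than between times. None of 8 TIFY repressors passed in limma, 0 of them at an unadjusted p under 0.05, and their list mean was -0.69 and 1.80 on the 0 h arrays against 0.53 and 0.78 at 8 h. The member with the largest change, TIFY11B (LOC_Os03g08330), lay at -4.84 and -2.15 at 0 h and at -5.02 and -5.07 at 8 h (change -1.55, adjusted p = 0.345). Both 8 h levels were close to 1 of the 0 h levels and far from the other. Of 6 jasmonate synthesis loci 1 rose and 1 fell, beside 14% and 12.3% of all loci. LOX-RCI1 (LOC_Os12g37260), a lipoxygenase, went from 0.10 and 1.18 to 3.12 and 4.15 (change 3.0, SE 0.49, adjusted p = 0.00815; 0.051 without Nipponbare 8 h replicate 2). JAR1 (LOC_Os05g50890), which joins jasmonate to isoleucine, was at -1.51 (SE 0.26, adjusted p = 0.00892; 0.0618 without that array). Allene oxide synthase AOS1 (LOC_Os03g55800), named after its values were seen, lay at 2.71 and 5.66 against 2.68 and 2.96. Without 8 h replicate 2 the rises and falls of the list were 0 each, and without 0 h replicate 1 the falls were 2.

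Of 9 WRKY factors 1 rose, WRKY70 (LOC_Os05g39720), from -2.33 and -0.60 to 0.79 and 0.79 (adjusted p = 0.0434; 0.000878 to 0.162 over all alternatives). Of 7 DREB factors 1 rose, DREB2B (LOC_Os05g27930), from -4.34 and -5.40 to -3.40 and -3.00 (adjusted p = 0.0304; 0.0036 to 0.154 over all alternatives). Both calls ended without either Nipponbare 8 h replicate or either Pokkali 8 h replicate, that of WRKY70 also without Nipponbare 0 h replicate 1 and that of DREB2B without 0 h replicate 2. In each of these cases 0 loci of the list rose, and 1 WRKY locus fell without 0 h replicate 1. Over all loci 14% rose and 12.3% fell, so 1 rise among 9 WRKY factors or 7 DREB factors is near that share. Of 7 tested phenylalanine ammonia-lyases, which open the phenylpropanoid pathway, 2 fell (median -1.54). Their list mean was 1.30 and 2.87 at 0 h, and 0 fell without Nipponbare 0 h replicate 2, either Nipponbare 8 h replicate or either Pokkali 8 h replicate, or with no filter on dim probes. Of 5 pathogenesis-related loci 1 fell, PR1A (LOC_Os07g03710), at -1.25 (adjusted p = 0.0141), and 0 without Nipponbare 0 h replicate 2 or 8 h replicate 2, whereas 2 fell without 0 h replicate 1.

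**Figure D4:**
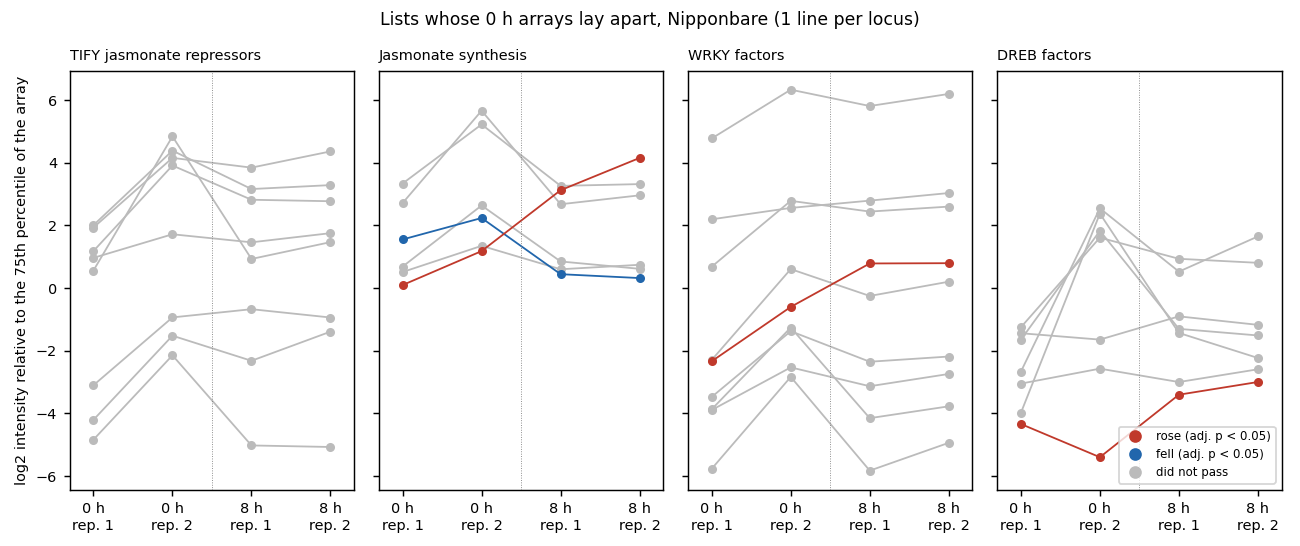
Levels on each Nipponbare array (x axis; y axis, log2 intensity relative to the 75th percentile of the array) of TIFY, jasmonate synthesis, WRKY and DREB loci, 1 line per locus; lines imply no order of replicates. Every TIFY locus lies higher on 0 h replicate 2 than on 0 h replicate 1, with list means of 1.80 and -0.69.

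Genes often used as references were not all flat. Of 5 reference loci 1 rose and 1 fell, both stably. Actin ACT1 (LOC_Os03g50885) went from 3.26 and 3.59 to 1.06 and 1.20, a 4.92-fold fall (SE 0.18 log2 units, adjusted p = 0.0013). GAPC (LOC_Os08g03290), the cytosolic glyceraldehyde phosphate dehydrogenase, went from 0.21 and 0.29 to 1.77 and 1.83, a 2.93-fold rise (SE 0.17 log2 units, adjusted p = 0.00257). The elongation factor EEF1A (LOC_Os03g08020) lay at 7.68 and 7.18 against 7.38 and 7.01 (change -0.23, adjusted p = 0.53) and did not pass. UBQ5 (LOC_Os01g22490), whose name RefSeq gives only on another chromosome, was at -0.86 (adjusted p = 0.0564) and passed as lower without either Pokkali 0 h replicate, which made 2 falls.

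Over all loci the changes reached far beyond 2-fold. Of the loci that passed, 4000 rose and 3936 fell at least 2-fold, 1189 and 1422 at least 4-fold, 417 and 407 at least 8-fold, 170 and 97 at least 16-fold, and 65 and 24 at least 32-fold. In these fitted changes falls outnumbered rises at 4-fold, and rises outnumbered falls at 16-fold and 32-fold. The counts include loci below background, whose fold is uncertain. Among the loci that passed, 285 that rose were below background on both 0 h arrays, and 469 that fell on both 8 h arrays. A further 41 rises and 12 falls were below background at both times. By the scanner flags 315 loci were below background on both 0 h arrays and above it on both 8 h arrays, of which 249 passed. The reverse held for 828 loci, of which 435 passed. Both sets were picked by the contrast that was tested, so their pass counts are no separate evidence beside the 26.3% of all loci. The largest rise among loci measured at both times was that of LOC_Os06g28050, from -5.42 and -5.71 to 2.79 and 2.48 (294-fold, adjusted p = 0.000353), followed by THI1. The largest falls were those of LOC_Os08g16260, from 3.53 and 3.79 to -1.37 and -3.60 (70.8-fold, adjusted p = 0.00419), and LOC_Os09g24370, from 6.10 and 7.65 to 0.32 and 1.23 (68.5-fold, adjusted p = 0.00202). These 3 loci carry no gene name here.

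Most Nipponbare changes had the same sign in Pokkali, whose arrays are separate but lay on the same slide. Of the 6371 loci that rose in Nipponbare 63.6% also rose in Pokkali and 25 fell, and of the 5593 that fell 67.8% also fell and 46 rose. Over all loci 15.2% rose and 12% fell in Pokkali. Both tests share 1 spread per locus, taken over the 4 groups, so passing in 1 line and in the other are not independent. Deviations of same-numbered 0 h arrays of the 2 lines also correlated at 0.535. Among list members 67 of 75 rises and 99 of 118 falls also passed in Pokkali, and 0 passed in the opposite direction. A difference between the lines passed for 157 loci (0.346%; 4727 at an unadjusted p under 0.05), and 1 list member was among them. SWEET15 (LOC_Os02g30910) went from -2.66 and -2.62 to 5.71 and 5.87 in Pokkali, a change of 8.43 against 4.90 in Nipponbare (difference 3.53, SE 0.31, adjusted p = 0.0284). It passed in all 9 alternatives that kept every array and in 2 of the 10 that left arrays out, with adjusted p from 0.0173 to 0.146. For NYC3 (LOC_Os06g24730) the changes were 3.01 in Nipponbare and 0.65 in Pokkali, and for NHX4 (LOC_Os06g21360) -1.17 and 0.08, with differences that did not pass (adjusted p = 0.0953 and 0.119; both chosen after their values were seen).

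Probes made for different transcript models of 1 locus did not always change alike. Each locus value above is the mean of its kept probes, and 2147 loci had 2 or more. The change of the difference between the first 2 probes passed for 84 loci, 3.91% of those tested, in 80 of which both probes were above background on all 4 Nipponbare arrays. This test was chosen after the data were seen. Among 56 such list loci 8 passed. For GOLS2 (LOC_Os07g48830) the first-model probe went from 0.95 and 1.14 to 5.01 and 5.36, and the second-model probe from -4.45 and -4.17 to -3.38 and -2.97. The changes were 4.14 and 1.14, and their difference of 3.0 (SE 0.19, adjusted p = 0.00786) also passed without each Nipponbare array in turn (0.0341 to 0.0407).

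THIC (LOC_Os03g47610), SAPK6 (LOC_Os02g34600) and SOS1 (LOC_Os12g44360) gave further cases. In THIC the first-model probe was at 3.44 and the second-model probe at -0.14 (difference adjusted p = 0.0226). In SAPK6, a member counted among the risen kinases, the probes were at 2.34 and -0.39 (adjusted p = 0.0478). In SOS1 both probes passed on their own, at 0.57 and 1.55 (adjusted p = 0.0491 for the difference). None of these 3 differences passed once 0 h replicate 2 or either 8 h array of Nipponbare was omitted, and without 0 h replicate 1 that of SAPK6 alone passed (0.042). Where probes part in this way the locus mean stands for neither of them. In GOLS2, THIC, SAPK6 and SOS1 the second-model probe was the dimmer one at both times. That probe changed less in GOLS2, THIC and SAPK6 and more in SOS1. Whether dimness lowered a change was not tested.

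**Figure D5:**
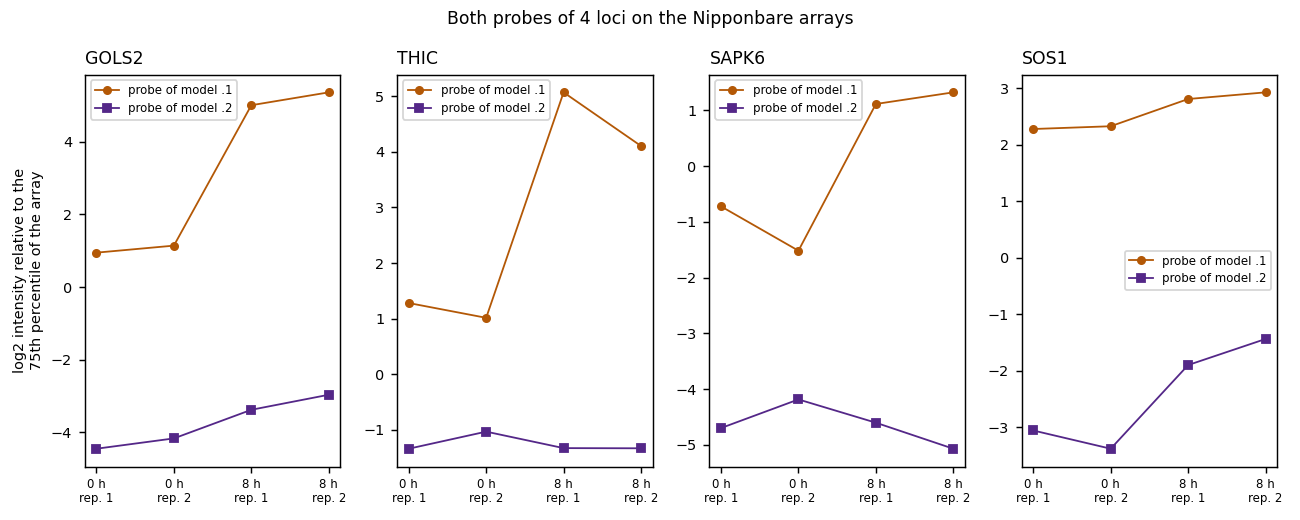
Levels of both probes of GOLS2, THIC, SAPK6 and SOS1 on each Nipponbare array (x axis; y axis, log2 intensity relative to the 75th percentile of the array, own scale in each panel); lines imply no order of replicates. In GOLS2 the first-model probe changed by 4.14 and the second-model probe by 1.14.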

How the data were processed

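Total RNA was labelled with Cy3 and hybridised to a custom array with 61657 non-control spots, 1 array per sample. The authors' deposited scanner tables hold the processed intensity of each spot, from which Feature Extraction 10.7.1.1 had removed background and a spatial trend, per the file headers. The design used the IRGSP5 build, per the file headers. The deposited flag columns (other than a measurement) mark control spots, outliers and spots above background. The deposited series table held the same intensity. Arrays had 81% to 85.5% of spots flagged as above background and a 75th percentile of 674 to 950 intensity units. At most 1 spot of an array was saturated. The number of arrays limits the precision.

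From these, control and outlier spots were left out, log2 intensity was shifted to each array's 75th percentile, and spots of a probe were averaged. A repeated probe counted as above background where a share over 0.5 of its spots was. Of 55078 probes the fit kept the 47560 that any group showed above background on both its arrays, and probes of a locus were averaged. limma 3.58.1 in R 4.3.3 (lmFit, eBayes) fitted the 4 groups (4 residual degrees of freedom, prior SD 0.212), with Benjamini-Hochberg adjustment over all loci and two-sided tests. Groups of 2 allow no exact permutation p below 0.333. A bound raises the dark group to the lowest level above background on each array. The fit was tested on simulated data. Figures were drawn with matplotlib.

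The lists and members were chosen with earlier results of these data known, so no list count is independent evidence. The text could name, per list, any of the 4 largest rises and the 4 largest falls that passed, or the largest change where none did, and it does not name each of these; it could also name all members of the clock, thiamine, reference and seed storage lists, and the extreme loci overall. 1 member of the reference list is not reported here. Names that say so were chosen after their values were seen. 1 of the 8 h samples is replicate 2 by its title and replicate 1 by its description, and the title was used. Alternatives changed background correction, scaling, filter, probe choice, samples and block. The mean spot signal was not used here, so another background correction (normexp, offset 50) ran on median signals. No sequences were printed, since none were among the files used here.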

Additional observations from a re-analysis of the deposited data

Results flagged for a closer look

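A change from 0 h to 8 h that differed between Nipponbare and Pokkali, by limma's test of the difference itself, brought up 5 results. SWEET15 (LOC_Os02g30910) rose by 3.53 log2 units more in Pokkali than in Nipponbare (adjusted p = 0.0284; 0.0173 to 0.146 over the alternatives). LOC_Os12g36410 differed by 4.71 (adjusted p = 0.0111; 2.79 with another background correction): it fell by 5.06 on the log2 scale in Nipponbare, where 1 of the 8 h arrays was above background, and in Pokkali it was at -5.57 and -5.46 at 0 h and below background at 8 h. The lowest levels above background on those Pokkali 0 h arrays were -5.75 and -6.02. A fall as large as that in Nipponbare could therefore not be seen in Pokkali. LOC_Os01g19750 had a fitted difference of 4.37 (adjusted p = 0.0167), which rests on levels below background at 0 h in Pokkali: it changed by -0.73 in Nipponbare and rose at least 2.62-fold in Pokkali, and with another background correction the difference was 0.81 and did not pass (adjusted p = 0.143). LOC_Os06g13390 had a fitted difference of -8.26 (adjusted p = 0.00219; -3.93 with another background correction), whose size rests on levels below background: in Nipponbare it was below background at 0 h, lay at -0.30 and 0.08 at 8 h and rose at least 64.4-fold, and it was below background on all 4 Pokkali arrays. LOC_Os01g06740 had a fitted difference of -5.37 (adjusted p = 0.0125; -4.13 with another background correction), rising from -3.89 and -4.32 to 1.31 and 1.46 in Nipponbare and lying below background on all Pokkali arrays. Over the alternatives the adjusted p reached 0.115 for LOC_Os12g36410, 0.0672 for LOC_Os06g13390 and 0.13 for LOC_Os01g06740. Whether Pokkali carries the probe's target was not tested.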

How the results depend on the processing

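Direction held for the 193 list members that passed under each of the 20 alternatives that gave them a value (18 had a value in 19), and 89 lost their call in at least 1 of them, most often without Nipponbare 8 h replicate 2 (84). Of the 197 members that did not pass 108 passed in at least 1. Leaving out 1 array moved the changed loci from 11964 to between 4034 and 12254, those higher to between 2024 and 6660, those lower to between 2010 and 5594, the list members to between 110 and 199, and the loci that differed between lines from 157 to between 0 and 179. The lowest counts of changed loci came without Nipponbare 8 h replicate 2. The 0 came from limma without either Pokkali 8 h array, with 4414 and 3629 loci at an unadjusted p under 0.05. Fits that drop the same 0 h replicate of both lines take their spread from the 8 h pairs. Without replicate 1 they gave 13768 changed loci (7522 higher, 6246 lower), 240 list members and 60 loci that differed between lines, and without replicate 2, 8526, 4699, 3827, 186 and 1. That difference counted 52 with no filter on dim probes, 49 with probes above background on all 8 arrays and 30 with the replicate block. With no scaling between arrays 3835 loci were higher and 66.8% of calls were lower, against 46.7%. Asking for at least 2-fold as well left 7936 changed loci, 4000 of them higher. With the replicate number as a block 216 list members passed, and with the number as a block at 0 h 266. Deviations of same-numbered Nipponbare arrays at 0 h and 8 h correlated at 0.113, and those of the 2 lines at 0 h at 0.535. With 2 numbers the samples are not taken as pairs.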
